A study of Mus musculus with 8 samples.

Results

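Genes for lysosomal enzymes, their helper proteins and proteins of the lysosomal membrane were compared between the hippocampus of young adult and of very old mice. The 40 genes were chosen by name: cathepsins and legumain, other hydrolases, soluble helpers and membrane proteins of the lysosome. Earlier results of these data were known at that choice, so shares of the 40 set against all genes are descriptions and not tests. Every array probe that was not a control and whose accession mapped to one of these symbols was read out. This gave 49 of the 39408 probes tested, and 40 of the 19742 genes tested. Of the 40 genes, 32 had 1 probe and 8 had several, and of several probes the one with the highest mean over all arrays stands for the gene.

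RNA came from the whole hippocampus, dissected by hand, of untreated wild type C57BL/6J mice, kept in their home cage per the labels. The methods add that mice of the oldest age were bought when already old and then held for some months. Animals of 3 months (3M) were compared with animals of 29 months (29M), with 4 samples at each age and no age between them. Each sample was labelled with Cy3 and hybridised to 1 one-colour microarray, on which the brightness of a spot reports the amount of 1 transcript. The labels do not say whether a sample held RNA of 1 animal, so the p-values measure the spread between these samples only, which may in part be technical. In RNA of a whole tissue, fewer cells of a type and less RNA per cell cannot be told apart.

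Lysosomes are acidic organelles in which hydrolases break down proteins, glycans and lipids that arrive by endocytosis, phagocytosis and autophagy. Cathepsins and legumain are the proteases of this compartment, glycosidases and sulfatases take glycans apart, and transporters and channels of the limiting membrane release the products. In the brain all cells hold lysosomes, microglia are rich in several of the proteases, and inherited loss of many of these genes causes lysosomal storage diseases with neurodegeneration.

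All 10 marker genes of hippocampal neurons that were examined were well above background on all 8 arrays. Between 76.2% (3M replicate 1) and 85.0% (3M replicate 4) of the spots of an array were well above background, and no spot was saturated. Any pair of arrays correlated across probes with r between 0.991 and 0.998, where probes are not independent replicates. The extraction software marked 3M replicate 1 for evaluation, the only array with that mark. The 8 arrays were spread over 3 slides, with both ages on every slide. Slide 1 carried 3M replicate 1 and 29M replicates 3 and 4, slide 2 carried replicate 2 of both ages, and slide 3 carried 3M replicates 3 and 4 and 29M replicate 1.

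The first question was which of the lysosomal genes differed in level between the ages. A gene was called when its adjusted p in limma was under 0.1 and its log2 change was at least 0.5 in either direction. Of the 40 genes 4 were called higher in 29M (10%), and over all genes tested the share called higher was 1.58%. Each was called on 1 probe, so that 4 of the 49 probes were called higher and none lower, against 1.25% and 0.809% of all probes. The called genes were Gpnmb, a membrane glycoprotein of lysosomes and melanosomes, the cysteine proteases Ctss (cathepsin S) and Ctsz (cathepsin Z), and the aspartic protease Ctse (cathepsin E). No gene of the 40 was called lower by limma, against 0.689% of all genes, and none was lower at an unadjusted p under 0.05, against 7.65% of all genes. At an unadjusted p under 0.05, 15 genes were higher (37.5%), against 9.43% of all genes.

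Most of the differences were small and lay on the same side. In the fit 32 of the 40 genes were higher in 29M (80%), against 52.9% of all genes. The median log2 change over the 40 genes was 0.14, with a range from -0.23 to 1.13, and the median over all genes was 0.01. Within slides 1, 2 and 3 the median over the 40 genes was 0.10, 0.18 and 0.18. All 4 arrays of 29M lay above all 4 arrays of 3M for 13 genes (32.5%), which held for 6.34% of all genes. The reverse order was seen for none of the 40 and for 5.21% of all genes. For 27 of the 40 the 95% interval of the change stayed within 0.5 log2 units of zero in both directions. This held for 13604 of the 19742 genes tested, a similar share. Without 3M replicate 1 the number of genes called higher was 6 and the median was 0.17. The share of all genes called is given for the main fit only, so counts under other settings cannot be set against it.

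**Figure D1:**
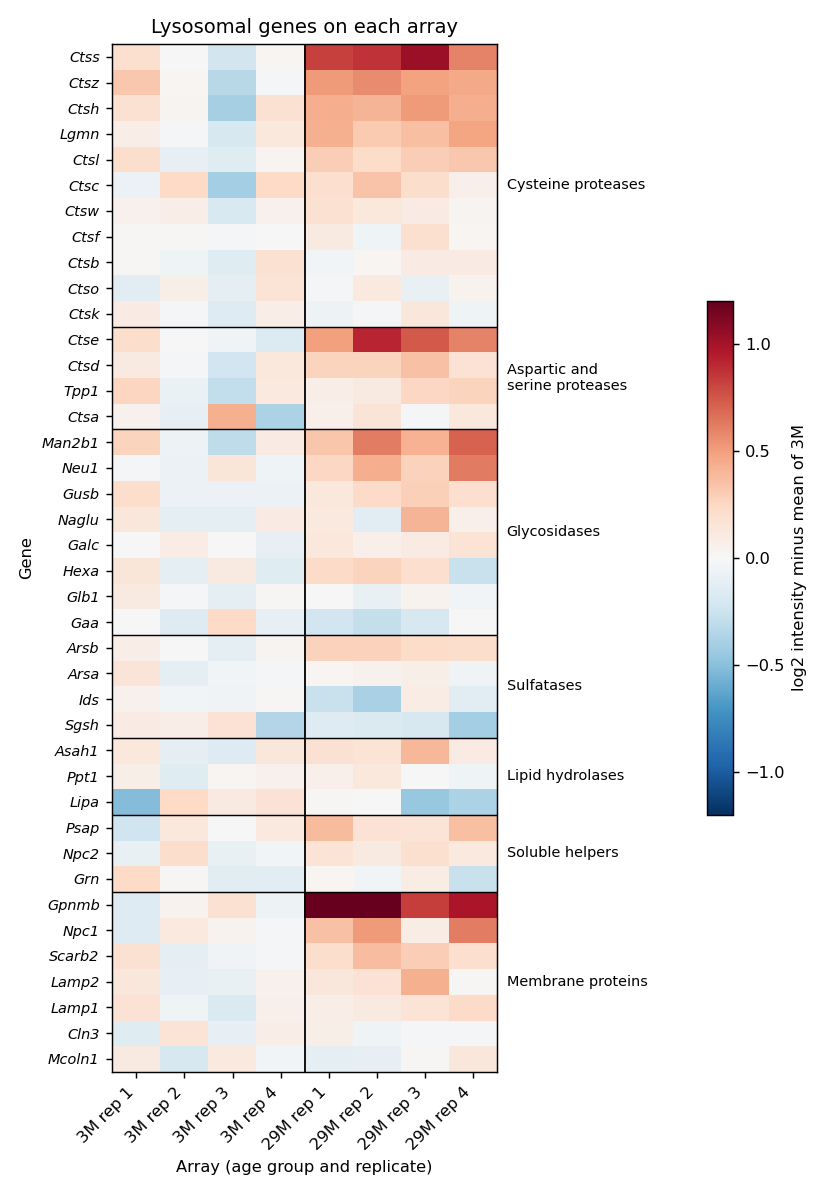
Normalized log2 intensity of the 40 genes (rows, grouped by role) on the 8 arrays (columns), each minus the gene's mean in 3M. The rows of Gpnmb, Ctss and Ctse are red on the 4 arrays of 29M, on average most strongly for Gpnmb. Most other rows are pale, and the row of Sgsh is pale blue on all 4 arrays of 29M.

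The deviation of the 40 genes from their own means over the arrays, taken as the median over the genes, was 0.01, -0.13, -0.16 and -0.04 log2 units on the 4 arrays of 3M. It was 0.07, 0.08, 0.12 and 0.07 on the 4 arrays of 29M. Each array of 29M thus had a higher median deviation than each array of 3M, and the arrays of 3M were spread more widely.

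**Figure D2:**
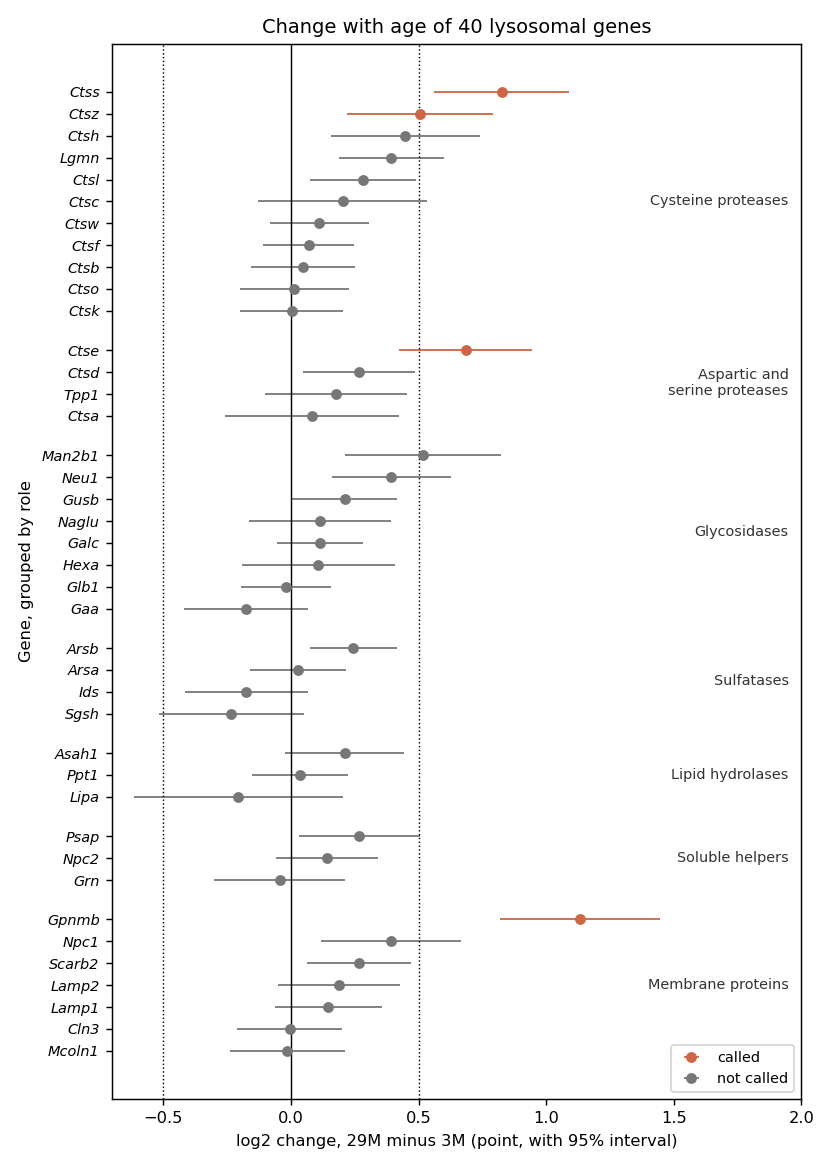
Log2 change from 3M to 29M of the 40 genes, grouped by role, as a point with its 95% interval from limma; orange points were called and dotted lines mark a change of 0.5 in either direction. The 4 called genes lie at 0.51 to 1.13, and the lowest value is that of Sgsh at -0.23.

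Promoters of the 3 called genes with a matched entry are shown beside those of Ctsd (cathepsin D) and Mcoln1, both of which carry the letters that TFEB, a transcription factor of lysosomal genes, is known to bind. The sequences are those of RefSeq on GRCm38.p6, from 250 bases before to 50 bases after the start of the transcript, read 5′ to 3′. Capitals mark CACGTG, the core of that element, its longer form TCACGTGA, which contains CACGTG, and GAGGAAGT, a form of the site of the myeloid factor PU.1, on either strand. In Ctss the capitals are GAGGAAGT read on the other strand.
Gpnmb (chr6:49036268-49036567, plus strand): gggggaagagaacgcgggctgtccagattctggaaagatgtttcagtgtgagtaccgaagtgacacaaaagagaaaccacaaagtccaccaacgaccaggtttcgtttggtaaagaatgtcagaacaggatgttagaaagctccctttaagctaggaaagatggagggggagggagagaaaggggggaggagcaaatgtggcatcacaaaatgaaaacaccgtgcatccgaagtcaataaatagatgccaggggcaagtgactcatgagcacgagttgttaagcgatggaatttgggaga
Ctss (chr3:95526536-95526835, plus strand): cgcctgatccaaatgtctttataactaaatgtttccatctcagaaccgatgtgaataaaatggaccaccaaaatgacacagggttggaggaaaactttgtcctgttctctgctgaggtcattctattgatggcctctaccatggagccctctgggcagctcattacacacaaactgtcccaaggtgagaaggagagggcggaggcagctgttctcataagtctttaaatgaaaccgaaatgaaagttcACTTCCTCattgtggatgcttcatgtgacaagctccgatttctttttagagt
Ctsz (chr2:174438990-174439289, minus strand): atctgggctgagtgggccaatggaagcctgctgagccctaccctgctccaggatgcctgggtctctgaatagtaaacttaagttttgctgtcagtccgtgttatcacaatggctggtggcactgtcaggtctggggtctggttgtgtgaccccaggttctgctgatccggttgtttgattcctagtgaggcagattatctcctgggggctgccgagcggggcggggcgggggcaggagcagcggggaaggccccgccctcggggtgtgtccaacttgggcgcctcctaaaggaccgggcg
Ctsd (chr7:142387778-142388077, minus strand): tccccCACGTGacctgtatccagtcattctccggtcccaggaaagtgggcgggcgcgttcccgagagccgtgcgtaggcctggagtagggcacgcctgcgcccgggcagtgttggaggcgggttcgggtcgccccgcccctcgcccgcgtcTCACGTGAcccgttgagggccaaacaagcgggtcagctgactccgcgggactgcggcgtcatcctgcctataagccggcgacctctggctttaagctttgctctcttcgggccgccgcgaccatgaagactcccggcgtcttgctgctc
Mcoln1 (chr8:3500269-3500568, plus strand): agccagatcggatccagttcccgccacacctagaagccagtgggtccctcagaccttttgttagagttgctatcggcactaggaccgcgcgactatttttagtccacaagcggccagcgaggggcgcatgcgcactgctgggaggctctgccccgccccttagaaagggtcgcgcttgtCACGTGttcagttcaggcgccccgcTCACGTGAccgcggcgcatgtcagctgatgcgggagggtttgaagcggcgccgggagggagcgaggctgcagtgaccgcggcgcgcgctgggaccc
Counted from the start of the transcript, CACGTG began at positions -245 and -98 in Ctsd and at -71 and -45 in Mcoln1, and the match in Ctss began at -2. None of the motifs was in the windows of Gpnmb and Ctsz.

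A promoter entry was matched for 34 of the 40 genes. No entry was matched for Npc1, Ctsb, Ctsh, Ctse, Asah1 and Ctsw. CACGTG was in 13 of the 34 (38.2%), against 8.09% of all 27025 genes with an entry. These were Ctsd, Ctsl, Ctsf, Ctsa, Lgmn, Gaa, Glb1, Naglu, Arsa, Sgsh, Lamp1, Cln3 and Mcoln1. The longer TCACGTGA was in 4 of the 34 (11.8%), namely Ctsd, Ctsa, Cln3 and Mcoln1, against 1.12% of all genes. GAGGAAGT was in Ctss, Ctsc and Gusb (8.82%), against 3.69% of all genes. Of the genes whose arrays of the 2 ages did not overlap, 11 had an entry and 3 of these held CACGTG (27.3%), and of the other genes 23 had an entry and 10 held it (43.5%). These shares describe letters in the windows and were not tested.

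Among the 11 cysteine proteases, counting legumain, 2 were called higher (Ctss and Ctsz, 18.2%), against 1.58% of all genes, and the call of Ctsz was lost under 14 of 21 alternative settings. At an unadjusted p under 0.05, 5 were higher (45.5%, against 9.43% of all genes), and in 5 all old arrays lay above all young ones (against 6.34% of all genes). The median log2 change was 0.20, and it was 0.11, 0.10 and 0.28 within slides 1, 2 and 3. All 11 changes were above zero, from 0.00 for Ctsk to 0.83 for Ctss.

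Ctss encodes cathepsin S, an endopeptidase of microglia and macrophages that trims the invariant chain of MHC class II and stays active at neutral pH. Its normalized log2 intensity (probe A_55_P2024888) was 14.59, 14.39, 14.18 and 14.42 on the arrays of 3M. On the arrays of 29M it was 15.21, 15.26, 15.42 and 14.99. The lowest array of 29M lay well above the highest of 3M, so the ages did not overlap. The means were 14.40 ± 0.17 (SD, n = 4) and 15.22 ± 0.18 (SD, n = 4), a log2 change of 0.83 with an SE of 0.12 (limma adjusted p 0.0136), or 1.77-fold. Within slides 1, 2 and 3 the difference was 0.61, 0.87 and 0.91. Ctss passed both thresholds under all 21 alternative settings that were run, with changes from 0.75 to 0.90.

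Ctsz encodes cathepsin Z (also called cathepsin X), a carboxypeptidase of phagocytes. Its log2 intensity (probe A_51_P256202) was 14.17, 13.87, 13.51 and 13.83 in 3M and 14.36, 14.41, 14.33 and 14.30 in 29M. The 4 arrays of 29M were close together, those of 3M were spread, and 3M replicate 1 came nearest to the old arrays. With a log2 change of 0.51 and an SE of 0.13 (limma adjusted p 0.0939), or 1.42-fold, Ctsz was just past both thresholds. In the settings that lost the call it had either an adjusted p above 0.1 or a change under 0.5, or missed a stricter adjusted p. Over all settings the change ran from 0.39 to 0.61 and the adjusted p from 0.0162 to 0.214. Leaving out any one of the 4 arrays of 29M, or 3M replicate 2, 3 or 4, ended the call, with changes from 0.39 (without 3M replicate 3) to 0.52 (without 29M replicate 4). Within slide 1, which holds 3M replicate 1, the difference was 0.14, and it was 0.55 and 0.69 within slides 2 and 3.

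Ctsh (cathepsin H), an aminopeptidase, had log2 intensities of 13.80, 13.64, 13.21 and 13.79 in 3M and 14.05, 14.02, 14.12 and 14.04 in 29M. The ages did not overlap, and 3M replicate 3 was lower than the other 3 arrays of its age. Its log2 change was 0.45 with an SE of 0.13 (limma adjusted p 0.131), which was not called. Without 3M replicate 1 it was 0.51 with an adjusted p of 0.0782 and was called, and over all settings the adjusted p ran from 0.0472 to 0.311.

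Lgmn encodes legumain, the asparaginyl endopeptidase that processes several cathepsins. Its values were 15.03, 14.93, 14.76 and 15.08 in 3M and 15.38, 15.27, 15.31 and 15.42 in 29M, without overlap. The change of 0.39 (SE 0.09, limma adjusted p 0.0731) passed the adjusted p but not the fold, and was therefore not called. It was much alike within the slides, at 0.33, 0.34 and 0.46. At an adjusted p under 0.1 and any size, 5 of the 40 genes were higher (12.5%), the called genes and Lgmn, against 2.42% of all genes.

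Ctsl, a broad endopeptidase, had values of 15.51, 15.21, 15.16 and 15.34 in 3M and 15.60, 15.52, 15.60 and 15.63 in 29M. The lowest array of 29M lay just above 3M replicate 1. The change was 0.28 (SE 0.09, limma adjusted p 0.175).

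The other 6 cysteine proteases were Ctsb, Ctsc, Ctsf, Ctsk, Ctso and Ctsw, and in each the arrays of the 2 ages overlapped. Ctsb, the major cysteine cathepsin of most tissues, had a change of 0.05 with a 95% interval from -0.16 to 0.25. Ctsc, which activates granule proteases, had 0.20 with a wide interval from -0.13 to 0.53, and its array of 3M replicate 3 was low at 10.69 against 11.03 to 11.34 for the others. Ctsw, known from cytotoxic lymphocytes, had 0.11. The changes of Ctsf, Ctso and Ctsk, the collagen-cleaving protease of osteoclasts, were 0.07, 0.01 and 0.00. None of these 6 genes was higher at an unadjusted p under 0.05.

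Among the aspartic and serine proteases 1 of 4 genes was called higher (25%, against 1.58% of all genes), and the median log2 change was 0.22. Ctse encodes cathepsin E, an aspartic protease of endosomes in immune cells. Its log2 intensity (probe A_55_P1997126) was 5.45, 5.24, 5.21 and 5.09 in 3M and 5.74, 6.16, 5.98 and 5.84 in 29M. The ages did not overlap, but the probe was dim, not well above background on any array of 3M and well above it on 3 of the 4 arrays of 29M. In the fit the log2 change came to 0.68 with an SE of 0.12 (limma adjusted p 0.0257). With the young arrays raised to the lowest signal that was well above background on each, the mean level in 29M was at least 1.25-fold higher. This bound holds for the means of the 4 arrays and not within slide 1, since that lowest signal was 6.03 on 3M replicate 1, above 3 of the 4 arrays of 29M, and 29M replicate 4 was itself not well above background. The size varied between settings that change the background correction or input signal together with the normalization, from 0.45 with normexp and quantile normalization to 2.25 with processed signals scaled to the 75th percentile. The call was lost in the former, and with the replicate number as a block, where the adjusted p was 0.104. The adjusted p ran from 0.00907 to 0.104 over the 20 settings in which the probe was tested.

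Ctsd, the main aspartic protease of lysosomes, had log2 intensities of 16.05, 15.93, 15.71 and 16.07 in 3M and 16.21, 16.21, 16.29 and 16.11 in 29M. The separation was narrow, with the lowest old array just above the highest young one. The change was 0.27 (SE 0.10, limma adjusted p 0.211), and on a further probe of the gene it was 0.33 (limma adjusted p 0.243) with overlap. Tpp1, the tripeptidyl peptidase lost in a form of neuronal ceroid lipofuscinosis, had a change of 0.18, and Ctsa, the protective protein of neuraminidase and beta-galactosidase, had 0.08 on one probe and -0.05 on the other. For Ctsa the arrays of 3M ranged from 14.72 to 15.53, wider than those of 29M at 15.09 to 15.26.

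**Figure D3:**
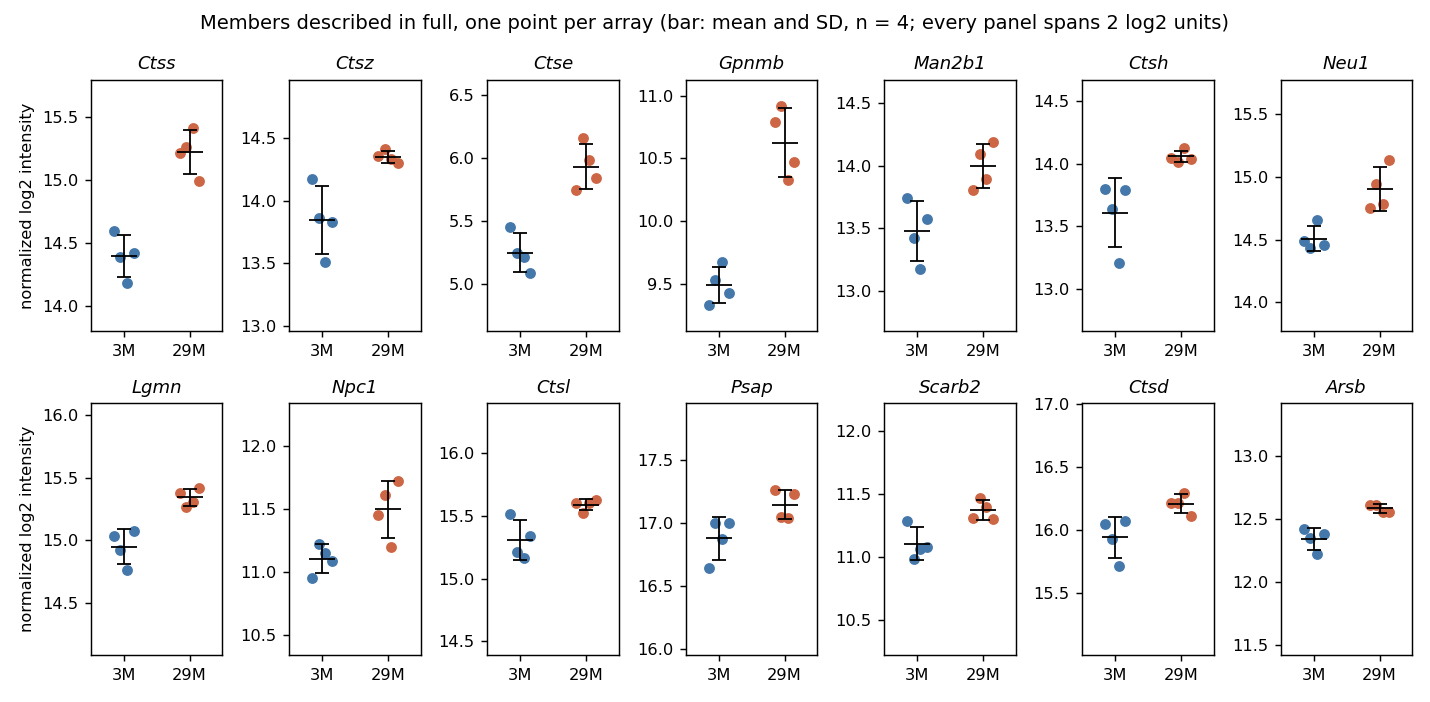
Normalized log2 intensity of 14 lysosomal genes on each array of 3M (blue) and 29M (orange), with the mean and SD of the 4 arrays; every panel spans 2 log2 units. The arrays of the 2 ages do not overlap in 13 of the panels and overlap in that of Npc1.

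No glycosidase was called by limma among the 8 measured, while 3 were higher at an unadjusted p under 0.05 (37.5%, against 9.43% of all genes). Their median log2 change was 0.11. Man2b1, the lysosomal alpha-mannosidase, had values of 13.74, 13.42, 13.18 and 13.58 in 3M and 13.81, 14.09, 13.89 and 14.19 in 29M. The highest young array, 3M replicate 1, lay just below the lowest old one. Its change of 0.52 (SE 0.14, 1.43-fold, limma adjusted p 0.104) passed the fold and narrowly missed the adjusted p. Man2b1 was called under 6 of 21 settings, among them the one without 3M replicate 1, with a change of 0.61 and an adjusted p of 0.0442. Over all settings its adjusted p ran from 0.0319 to 0.284.

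Neu1, the neuraminidase that removes sialic acid, had 14.49, 14.44, 14.65 and 14.45 in 3M and 14.75, 14.94, 14.78 and 15.13 in 29M. The ages did not overlap, and 29M replicate 4 was the highest of all. The change was 0.39 (SE 0.10, limma adjusted p 0.107), with 0.47, 0.51 and 0.20 within slides 1, 2 and 3. Gusb, the beta-glucuronidase, had a change of 0.21 (limma adjusted p 0.285), and its young arrays were 11.78 on 3 arrays and 12.06 on 3M replicate 1, which reached into the range of 29M. The change was 0.11 for Hexa, a subunit of beta-hexosaminidase, for Galc, the galactosylceramidase of myelin lipids, and for Naglu, an enzyme of heparan sulfate breakdown. Values of -0.02 for Glb1, the beta-galactosidase, and -0.17 for Gaa, the acid alpha-glucosidase of glycogen, lay on the other side of zero. The further probe of Gaa gave -0.11.

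The 4 sulfatases had a median log2 change of -0.07, the lowest of the roles, and none was called by limma. One of them, Arsb, which acts on dermatan and chondroitin sulfate, was higher at an unadjusted p under 0.05 (25%, against 9.43% of all genes). It had 12.42, 12.35, 12.22 and 12.38 in 3M and 12.61, 12.62, 12.56 and 12.55 in 29M. The old arrays were tight and did not overlap with the young ones. The change was 0.24 (SE 0.08, limma adjusted p 0.157), whereas the dimmer probe of the gene gave -0.09 with overlap, so the probes of Arsb differed in sign. Arsa, the sulfatase lost in metachromatic leukodystrophy, had 0.03, with a 95% interval from -0.16 to 0.21. Sgsh, which cleaves heparan sulfate, had the lowest change of the 40 genes, -0.23 (limma adjusted p 0.388), and -0.12 on its further probe. Ids, the iduronate sulfatase, had -0.18.

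The 3 lipid hydrolases were not called by limma, and none was higher at an unadjusted p under 0.05 on its representative probe. Asah1, the acid ceramidase, had a change of 0.21 on that probe and 0.37 (limma adjusted p 0.152) on the other. Ppt1, a palmitoyl thioesterase, had 0.04. Lipa, the acid lipase of cholesteryl esters, had -0.21, and its 95% interval from -0.62 to 0.20 reached farther below zero than that of any other of the 40 genes.

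Of the 3 soluble helpers, Psap had the largest change. Its product prosaposin yields the saposins, which present lipids to hydrolases. Values were 16.64, 17.00, 16.88 and 17.00 in 3M and 17.26, 17.05, 17.04 and 17.24 in 29M. The ages were separate by a narrow gap, with 3M replicate 1 the lowest. The change was 0.27 (SE 0.11, limma adjusted p 0.241), but within slides it went from 0.05 on slide 2 to 0.50 on slide 1. Npc2, the soluble carrier of cholesterol, had 0.14, and Grn, the progranulin gene linked to frontotemporal dementia, had -0.04 with a 95% interval from -0.30 to 0.21.

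Of the 7 membrane proteins 1 was called higher (14.3%, against 1.58% of all genes). At an unadjusted p under 0.05, 3 were higher (42.9%, against 9.43% of all genes), and the median log2 change was 0.19. Gpnmb, a glycoprotein of lysosomes in macrophages and pigment cells, had the largest change of all 40 genes. Its log2 intensity (probe A_51_P438967) was 9.34, 9.53, 9.67 and 9.43 in 3M. In 29M it was 10.79, 10.91, 10.33 and 10.47. The gap between the highest young and the lowest old array was wider than the whole range of the young arrays, and the old arrays were spread more widely than the young ones. The means were 9.49 ± 0.14 (SD, n = 4) and 10.62 ± 0.27 (SD, n = 4), a log2 change of 1.13 with an SE of 0.14 (limma adjusted p 0.00697), or 2.19-fold. Within slides 1, 2 and 3 the difference was 1.06, 1.38 and 1.24. Gpnmb passed both thresholds under all 21 settings, with changes from 1.04 to 1.23.

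Npc1, the membrane transporter that hands on cholesterol from Npc2, had 10.95, 11.22, 11.15 and 11.09 in 3M and 11.45, 11.61, 11.20 and 11.72 in 29M. The array of 29M replicate 3 fell within the range of 3M, so the ages overlapped. The change was 0.39 (SE 0.12, limma adjusted p 0.157). Scarb2, the receptor that carries beta-glucocerebrosidase to lysosomes, had 11.29, 10.98, 11.07 and 11.08 in 3M and 11.31, 11.47, 11.40 and 11.30 in 29M. The lowest old array lay just above 3M replicate 1. The change was 0.27 (SE 0.09, limma adjusted p 0.184), with 0.06, 0.49 and 0.24 within slides 1, 2 and 3.

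Lamp1 and Lamp2, the most abundant glycoproteins of the lysosomal membrane, were not called. Lamp1 had a change of 0.15 with a 95% interval from -0.06 to 0.35. Lamp2 had 0.19 (limma adjusted p 0.413) on the representative probe, with overlap. On its dimmer probe the values were 12.10, 12.84, 12.18 and 12.82 in 3M and 13.39, 13.30, 12.96 and 13.08 in 29M. On that probe the ages did not overlap and the change was 0.70 (SE 0.19, limma adjusted p 0.116), so the probes of Lamp2 gave sizes that differed by more than the SE of either. Mcoln1, the calcium channel of the lysosomal membrane, had -0.01 with a 95% interval from -0.24 to 0.21. Cln3, the gene of juvenile neuronal ceroid lipofuscinosis, had changes between -0.07 and 0.03 over its 3 probes.

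**Figure D4:**
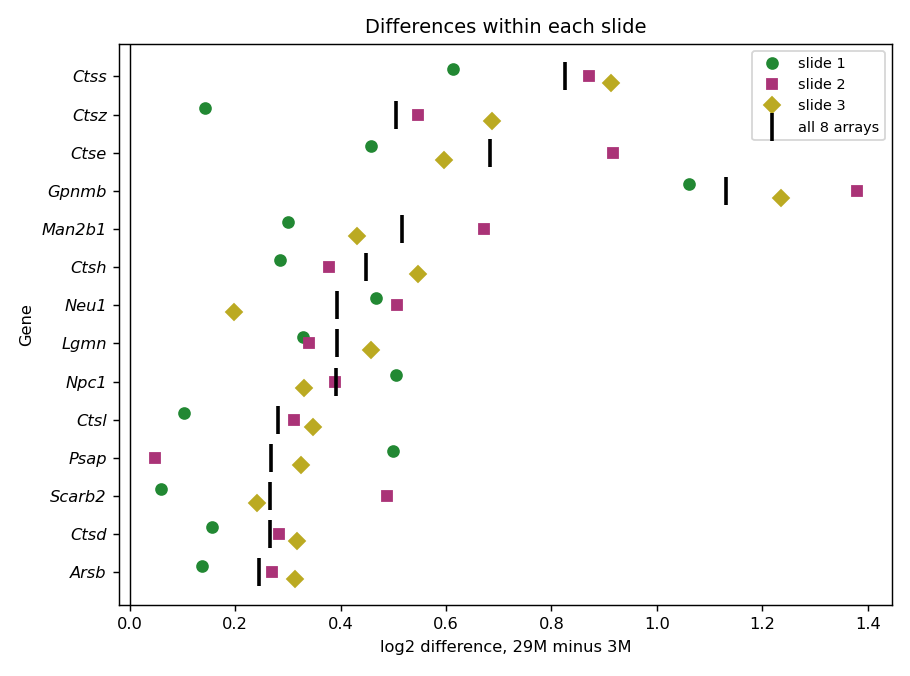
Log2 difference between 29M and 3M within each of the 3 slides (coloured symbols) and over all 8 arrays (black bars) for the 14 genes with full values. These genes were chosen for a call or a large change, so that a shared sign is no independent support; the values of Gpnmb run from 1.06 to 1.38 and those of Ctsz from 0.14 to 0.69.

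Slide 1 gave the lowest of the 3 within-slide differences for most of the 14 genes, with Neu1, Npc1 and Psap as exceptions. This slide held 3M replicate 1, which was the highest young array for Ctss, Ctsz, Ctsh, Ctsl, Ctse, Man2b1, Arsb and Scarb2. The sign over the slides is partly set by the choice of these genes for their size. Of the other 26 genes 7 were above zero on all 3 slides, 3 were below zero on all 3 (Gaa, Sgsh and Ids), and 16 differed in sign between slides, among them Grn at -0.33, -0.05 and 0.15. With slide as a fixed block 3 of the 40 genes were called higher and the median was 0.12. The share of all genes called in that fit is not given.

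The other genes of the pathway were read from a list of 71 further lysosomal genes, of which 70 had a probe and Cd68 had none. Of the 70, 43 were higher and 27 lower in the fit, and the median log2 change was 0.05. The share higher in the fit was 61.4%, against 52.9% of all genes. Called higher were 3 genes (4.29%, against 1.58% of all genes), the lysozymes Lyz1 and Lyz2 and the cathepsin inhibitor Cst7, and none was called lower by limma. At an unadjusted p under 0.05, 13 were higher (18.6%, against 9.43% of all genes) and 1 was lower (against 7.65% of all genes).

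Cst7 encodes cystatin F, an inhibitor of cysteine cathepsins that is made by immune cells. Its log2 intensity was 6.96, 6.98, 6.31 and 6.73 in 3M and 9.95, 9.93, 9.65 and 8.32 in 29M. The old arrays were all far above the young ones, with 29M replicate 4 the lowest of them. The log2 change was 2.72 with an SE of 0.34 (limma adjusted p 0.0071), or 6.58-fold, and it was called under all 21 settings. The other cathepsin inhibitors were Cst3, Cst6 and Cstb, with changes of 0.02, -0.01 and -0.01.

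Lyz2, the lysozyme of macrophages, had values of 7.74, 6.99, 6.86 and 6.64 in 3M and 8.62, 8.94, 8.43 and 7.94 in 29M, without overlap. The change was 1.42 (SE 0.26, limma adjusted p 0.0347). Lyz1 is a near-identical copy, so that the probes may share signal and their split is uncertain. Its values were 12.04, 11.34, 11.06 and 10.71 in 3M and 12.56, 12.80, 12.62 and 11.88 in 29M, with 3M replicate 1 above the lowest old array. The change of Lyz1 was 1.18 (SE 0.28, limma adjusted p 0.0816), and within slides it went from 0.21 on slide 1 to 1.46 and 1.67 on slides 2 and 3. Leaving out 3M replicate 2 or 29M replicate 1 ended the calls of both lysozymes, with adjusted p of 0.106 and 0.111 for Lyz2 and 0.189 and 0.200 for Lyz1, and 1 gene of the list was then called. Over all settings the adjusted p ran from 0.00316 to 0.111 for Lyz2 and from 0.0096 to 0.200 for Lyz1.

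Acp5 and Gm2a were among the genes with the largest changes that were not called. Acp5, the tartrate-resistant acid phosphatase, had -0.66 (limma adjusted p 0.534), which rested on 3M replicate 1 at 12.19 against 9.46 to 10.06 on the other young arrays. Without that array it was -0.07. Gm2a, an activator protein of ganglioside breakdown, had -0.37 (limma adjusted p 0.217).

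By role, the 20 other hydrolases had a median change of 0.19 and 7 were higher at an unadjusted p under 0.05 (35%, against 9.43% of all genes). The 18 subunits of the proton pump (V-ATPase), which acidifies the lumen, had a median of 0.01, with 9 higher and 9 lower in the fit. None of these subunits was called by limma, and 2 were higher at an unadjusted p under 0.05 (11.1%, near the 9.43% of all genes). For 15 the 95% interval stayed within 0.5 log2 units of zero, which held for 13604 of the 19742 genes tested. The median was 0.08 for 16 other membrane proteins and 0.05 for 7 genes of enzyme sorting and maturation, such as the mannose 6-phosphate receptors M6pr (-0.17) and Igf2r (-0.05). Among 5 transcription factors of lysosomal genes the median was 0.08, and none was called by limma. Tfeb had a change of 0.30 (limma adjusted p 0.288), and Tfec was not well above background on any array.

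**Figure D5:**
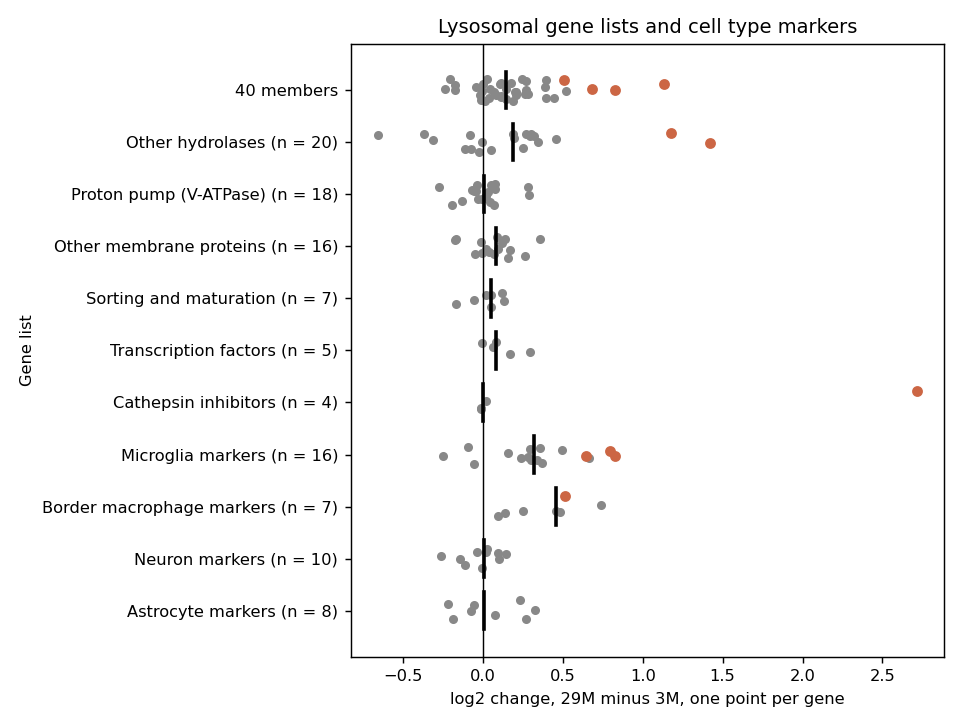
Log2 change from 3M to 29M of each gene (points) in the 40 lysosomal genes, further lysosomal gene lists and marker lists of cell types, with called genes in orange and the median of each list as a black bar. The bar of the V-ATPase list lies at 0.01 and that of the 40 genes at 0.14; the point farthest right is Cst7 at 2.72.

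Markers of other cell types were read in the same fit, since several cathepsins are made mostly by phagocytes. Of 16 microglia markers 13 were higher in the fit (81.2%, against 52.9% of all genes), and in 6 all old arrays lay above all young ones (37.5%, against 6.34%). Called higher were 3 of them (18.8%, against 1.58%), Trem2 (0.65), Tyrobp (0.80) and Cd33 (0.83). Lower in the fit were 3, Fcrls (-0.25), Olfml3 (-0.10) and Itgam (-0.05). The median log2 change of the 16 was 0.32 (range -0.25 to 0.83), and 0.25, 0.40 and 0.31 within slides 1, 2 and 3. Their mean log2 intensity lay between 12.54 and 12.90 on the arrays of 3M and between 12.78 and 13.14 on those of 29M, and all 16 were well above background on all 8 arrays. Their median deviation was -0.06, -0.25, -0.31 and -0.16 on the arrays of 3M and 0.18, 0.16, 0.31 and 0.10 on those of 29M. The array with the highest value in each age, 3M replicate 1 and 29M replicate 3, was the same as for the 40 lysosomal genes. It was also the same over all genes, at 0.02 in both ages, so the match is not particular to these markers. Of 7 markers of border-associated macrophages all were above zero in the fit and 1 was called (14.3%, against 1.58% of all genes), Cbr2 (0.51). Their median was 0.46 (range 0.10 to 0.74). Their mean intensity ranged from 8.86 to 9.34 in 3M and from 9.24 to 9.64 in 29M, and Cd163 was not well above background on any array. The part of these cells in the changes of the lysosomal genes was not tested.

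Of 10 markers of cytotoxic lymphocytes 2 were called higher (20%, against 1.58% of all genes), Cd8a (0.71) and Cd2 (0.65). The median was -0.04 with a range from -0.44 to 0.71, and 6 were lower in the fit. At an unadjusted p under 0.05, 2 were higher (20%, against 9.43% of all genes) and 1 was lower (against 7.65% of all genes). The lower marker was Gzma (-0.44), in which all old arrays lay below all young ones. Klrb1c was not well above background on any array, Cd3g was so on 1 array only, and Cd8a on 3 of the 4 arrays of 3M. In Cd2 the ages overlapped, with 3M replicate 1 at 6.94 and 29M replicate 4 at 6.84. No gene of the other lists was called by limma. The median was 0.01 over 10 neuron markers (range -0.26 to 0.14), with none at an unadjusted p under 0.05 in either direction. It was -0.02 over the 10 hippocampal markers (-0.38 to 0.27), with 2 lower at that p, and 0.01 over 8 astrocyte markers (-0.22 to 0.33), with 1 in each direction. The 8 oligodendrocyte markers had a median of 0.18 (0.04 to 0.40) with 1 higher, and 7 endothelial markers 0.04 (-0.14 to 0.37) with 2 higher. The 7 markers of choroid plexus had 0.15 (-0.19 to 0.24) with none, and differed widely between slides, from -0.61 to 0.40. The 4 markers of red blood cells had -0.32 (-0.34 to 0.13) with 1 lower, and Hbb-b1 had no probe. Over all genes 9.43% were higher and 7.65% lower at that p. With 4 to 10 genes to a list, the counts were not tested against these shares.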

How the data were processed

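Hippocampal RNA of 3M and 29M mice (4 arrays each, grouped by sample title) was measured on Agilent one-colour arrays. The authors deposited the raw scanner files, which hold linear intensities without any normalization across arrays and were made, per the file headers, with Feature Extraction 10.7.3.1. The scanner, design and software in these headers differ from those named in the methods. A deposited series table was not used: each of its 8 columns (medians 26.7 to 34.8) matched the local background intensities of some array within 0.001, and for 7 columns this was the array of another sample (for 4 of them, of the other age). All 8 columns followed the order of slide and position on the slide. Groups came from the scanner file recorded for each sample, and a wrong record of these files was not tested for. The deposited series table thus held local background intensities, which are not expression values.

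Following the methods, intensities were normalized by variance stabilisation to a generalized log2 scale, on which changes of dim probes are understated, and fitted in limma 3.58.1 (R 4.3.3) with a term for age, empirical Bayes and Benjamini-Hochberg adjustment over all 39408 probes. The mean spot intensity was planned as input, and the median took its place. The variance stabilising model was programmed anew, with least trimmed squares (quantile 0.9, 7 iterations). Control spots and outlier spots (127 to 190 per array) were left out, spots of a probe were averaged, and at least 3 usable arrays per group were asked for. On data simulated for this comparison (39429 probes, 200 changed) 93.5% were recovered and 6.5% of calls were false. The recovered share was taken over all 200 probes together. Recovery of small changes or of dim probes was not tested, so the 93.5% need not hold for them. The number of arrays limits the precision.

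Accessions were matched to RefSeq genes of GRCm38.p6 (66.1% of 39429 probes named). The arrays were designed on mm9, so no coordinates of probes are given. Promoters came from RefSeq and were searched with Python 3.11.15. For a probe below background on every array of a group, the fold is a bound from the lowest signal well above background on each array.

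The lysosomal genes, the pathway list and the marker lists were chosen with earlier results of these data known. Full values are given for members with a called probe and then for those with the largest absolute change, up to 14 genes; from the pathway list for called genes and the 3 largest changes not called; and for each marker list its count, median and range, with called markers named. A result that this rule gave for 1 pathway gene is not reported here. Alternatives were other normalizations and input signals, outlier spots kept, bright probes only, slide or replicate number as a block, other variance priors, array weights, other rules for genes with several probes, a stricter threshold, and each array left out.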

Additional observations from a re-analysis of the deposited data

Results flagged for a closer look

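The most distant of the 4 arrays of an age was looked at for every one of the 40 lysosomal genes, for the 6 pathway genes that the naming rule gave and for the median deviation of the 40 genes. A group was marked when the gap of its highest or lowest array to the nearest other array took up more of the group's range than Dixon's critical value allows. Of 94 groups examined 6 were marked, where chance alone marks about 1 in 20, here 4.7.

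For Gusb in 3M the gap was 0.994 of the range, since 3M replicate 1 had a log2 intensity of 12.06 and the other arrays 11.78. For Lipa in 3M it was 0.830, with 3M replicate 1 at 8.76 and the others between 9.39 and 9.52. For Ctsw in 3M it was 0.874, with 3M replicate 3 at 9.24 and the others between 9.47 and 9.51. In 29M the gap of Hexa was 0.871, with 29M replicate 4 at 13.31 and the others between 13.78 and 13.85. The gap of Sgsh was 0.844, with the same array at 15.29 and the others between 15.51 and 15.55. For the median deviation of the 40 genes in 29M it was 0.860, with 29M replicate 3 at 0.12 and the others between 0.07 and 0.08. None of these 5 genes was called.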

How the results depend on the processing

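The number of lysosomal genes called higher was between 3 and 6 when each array was left out in turn, and between 3 and 5 under the other settings, except with the replicate number as a block, where it was 2 (Gpnmb and Ctss). No gene of the 40 was called lower under any setting run, and their median change lay between 0.11 and 0.17 with each array left out. Of the pathway list 1 to 3 genes were called higher with each array left out, with 1 gene without 3M replicate 2 and 1 without 29M replicate 1. Its count called lower was 0, and its median lay between 0.04 and 0.07. Shares of all genes called under the alternative settings are not given, so none of these counts can be set against them.

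In the main fit the replicate numbers were not taken to pair the samples. Deviations of same-numbered arrays correlated at -0.24, 0.21, -0.23 and 0.07, so that 1 of 4 pairs was over 0.1, and 2 of 8 arrays correlated best with their own number. That pair, replicate 2, was the only one on a shared slide. Such correlations also carry differences between slides and cannot show that no pairing existed. With the replicate block the median change of the 40 genes was 0.14 and that of the pathway list 0.05, none of either was called lower, and 3 genes of the pathway list were called higher.

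No change of a named gene turned its direction under any setting run. The setting of any probe took the probe with the lowest p, so it passed over the dimmer probe of Arsb (-0.09). Ctss, Gpnmb and Cst7 were called under every one. Ctsz was lost under 14 of 21 settings, Lyz1 under 9, Lyz2 under 2 and Ctse under 2 of 20, while Man2b1 was called under 6 and Ctsh under 1. Where no reason was given beside the value, the cause was not tested. Ctse is limited by its signal near background.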
